A study of Mus musculus with 6 samples.

Results

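Interferon-stimulated genes are the genes that a cell switches on when interferon reaches it. The 43 genes described here were chosen as a list by symbol, and all 43 were among the 33276 genes of the deposited table. All 43 also passed the filter on low counts, which left 20248 genes in the test. The libraries came from fibroadipogenic progenitors (FAPs), stromal cells of skeletal muscle from which fibroblasts and adipocytes can arise. One group of 3 libraries, called circulating, came from FAPs of peripheral blood, and the other group of 3, called muscle, from FAPs of muscle. Both groups came from mice with middle cerebral artery occlusion (MCAO), a surgical mouse model of ischaemic stroke. The strain field reads MCAO, and the genetic background, age and sex of the mice, the time after occlusion and the muscle sampled are not given in the sources used here. No library without the occlusion was analysed here, so the comparison is between 2 sources of cells after stroke and not between stroke and health. Whether each library came from its own mouse is not stated, and p-values therefore reflect only the spread among these samples, which may be technical.

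Type I interferons bind a receptor made of Ifnar1 and Ifnar2, and the kinases Jak1 and Tyk2 then phosphorylate Stat2. With Irf9, Stat2 is part of a complex that binds a short promoter motif, the interferon-stimulated response element (ISRE). Interferon gamma acts through Ifngr1 and Ifngr2 and the kinases Jak1 and Jak2, and many of its targets carry a different motif, the gamma-activated site (GAS). The genes that follow encode sensors of foreign nucleic acid, enzymes that block viral translation or replication, GTPases that attack the vacuoles of intracellular pathogens, and regulators that sustain or end the response. Stromal cells such as fibroblasts express many of these genes at a low level without infection and are strong responders to interferon.

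The motifs were searched in windows from RefSeq (build GRCm38.p6) that run from 250 bases before a gene's start to 50 after it. Of the 43 members 35 had a window. The ISRE core, GAAA and another GAAA with any 2 bases between them, on either strand, was found in 21 of these 35 genes (60.0%), against 3.99% of all 27025 genes with a window. The GAS core TTCNNNGAA, which reads the same on both strands, was found in 10 of the 35 (28.6%), against 9.55% of all genes. The motifs were searched separately, and matches that overlap were each counted. The 160 bases before the start are shown for the 3 described members with an upstream match and the smallest p-values, and for 2 described members whose windows held no ISRE core, with the core in capitals.
Ifi203, chr1:173942493-173942652, minus strand: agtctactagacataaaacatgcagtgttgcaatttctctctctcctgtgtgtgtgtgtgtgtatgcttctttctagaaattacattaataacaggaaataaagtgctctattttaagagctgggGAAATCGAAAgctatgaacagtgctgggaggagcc
Ifit3, chr19:34583369-34583528, plus strand: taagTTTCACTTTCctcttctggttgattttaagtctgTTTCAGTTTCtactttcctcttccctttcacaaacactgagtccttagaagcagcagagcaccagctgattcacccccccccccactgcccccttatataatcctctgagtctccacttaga
Irgm1, chr11:48871421-48871580, minus strand: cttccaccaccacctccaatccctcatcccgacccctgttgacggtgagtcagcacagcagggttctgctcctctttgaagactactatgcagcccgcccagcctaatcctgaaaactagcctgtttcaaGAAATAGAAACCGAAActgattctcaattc
Isg20, chr7:78913264-78913423, plus strand: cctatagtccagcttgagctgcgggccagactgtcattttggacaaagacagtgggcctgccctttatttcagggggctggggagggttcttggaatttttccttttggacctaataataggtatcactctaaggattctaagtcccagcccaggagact
Ifitm1, chr7:140967916-140968075, plus strand: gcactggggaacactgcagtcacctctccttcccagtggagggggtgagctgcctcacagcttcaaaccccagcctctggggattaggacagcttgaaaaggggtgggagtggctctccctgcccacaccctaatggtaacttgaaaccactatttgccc
In the stretch shown Ifi203 had 1 match, whose first base lay 35 bases before the start, and Irgm1 had 2 overlapping matches at 30 and 24 bases before it. Ifit3 had 2 matches on the other strand, read here as TTTC, 2 bases and TTTC, at 156 and 122 bases before the start. The starts are those of the windows. For Ifit3 and Ifitm1 the bases after the start were not found at the start of a GENCODE M21 transcript. Ifi203 had another window, which held no match. The 21 genes with an ISRE core had a median log2 fold change, circulating minus muscle, of -0.91, and 16 of them were negative. The 14 genes with a window but no core had a median of 0.10, with 6 negative, and the 8 members with no window, Ifi204 and Parp14 among them, a median of -0.38, with 5 negative. These values are a description with no test, and a match shows the letters and not binding. A window with no match does not show that the motif is absent elsewhere or in a looser form. The sets were not matched for abundance, which went with fold change over the whole table, as given below.

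Levels are given as CPM, the usual depth-scaled count, which sets a gene's reads against the library total after scaling by the trimmed mean of M values (TMM). Totals ran from 5522193 to 13813329 counts in circulating and from 17532558 to 23424039 in muscle libraries, and 18S ribosomal RNA took 42.9% to 60.1% and 27.8% to 32.3% of them. FAP and fibroblast markers (8 genes, Pdgfra and Dcn among them) summed to 25302 to 27831 CPM in circulating and 56785 to 67417 CPM in muscle libraries. Of the 8, 6 lay lower in every circulating library, and Ly6a and Cd34 overlapped. Over all genes 11.4% lay lower in this way, and 28.8% of those with a mean of at least 20 CPM. Leukocyte markers (7 genes) summed to 30.2 to 166 CPM and 9.88 to 17.0 CPM. Of the 7, 4 lay higher in every circulating library than in every muscle library, against 16.2% of all genes. Monocyte and macrophage markers (8 genes) summed to 45.2 to 129 CPM and 13.1 to 28.8 CPM. No marker of these 3 lists was at 0 in a whole group, and the part of these differences in the results that follow was not tested. Fewer cells of a type and less RNA per cell cannot be told apart in these bulk libraries.

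In circulating FAPs 1 of the 43 genes, Ifi203, fell relative to muscle FAPs and none rose at an adjusted p under 0.05 in edgeR. Over all 20248 genes 0.104% were called lower and 0.00494% higher. At an unadjusted p under 0.05, 11 members were lower and 1, Oas1a, was higher, against 9.64% and 9.71% of all genes. The members that lay lower in every circulating library than in every muscle library numbered 12, and those that lay higher numbered 4. The shares over all genes were 11.4% and 16.2%. These counts and shares rest on TMM-scaled CPM and were not repeated under other scalings. The median log2 fold change was -0.56 over the members and 0.15 over all genes tested, with 27 of 43 members negative against 45.5% of all genes. Fold changes went with abundance over the whole table. Of genes with a mean of at least 20 CPM, 28.8% lay lower in every circulating library, with a median log2 fold change of -0.65. For the 22 members in that range the count was 9 and the median -0.91. At an unadjusted p under 0.05, 1033 of the 4736 genes in that range were lower, and 8 of the 22 members. Of genes under 2 CPM 25.9% lay higher in every circulating library, with a median of 0.77, and 4 members fell in that range.

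**Figure D1:**
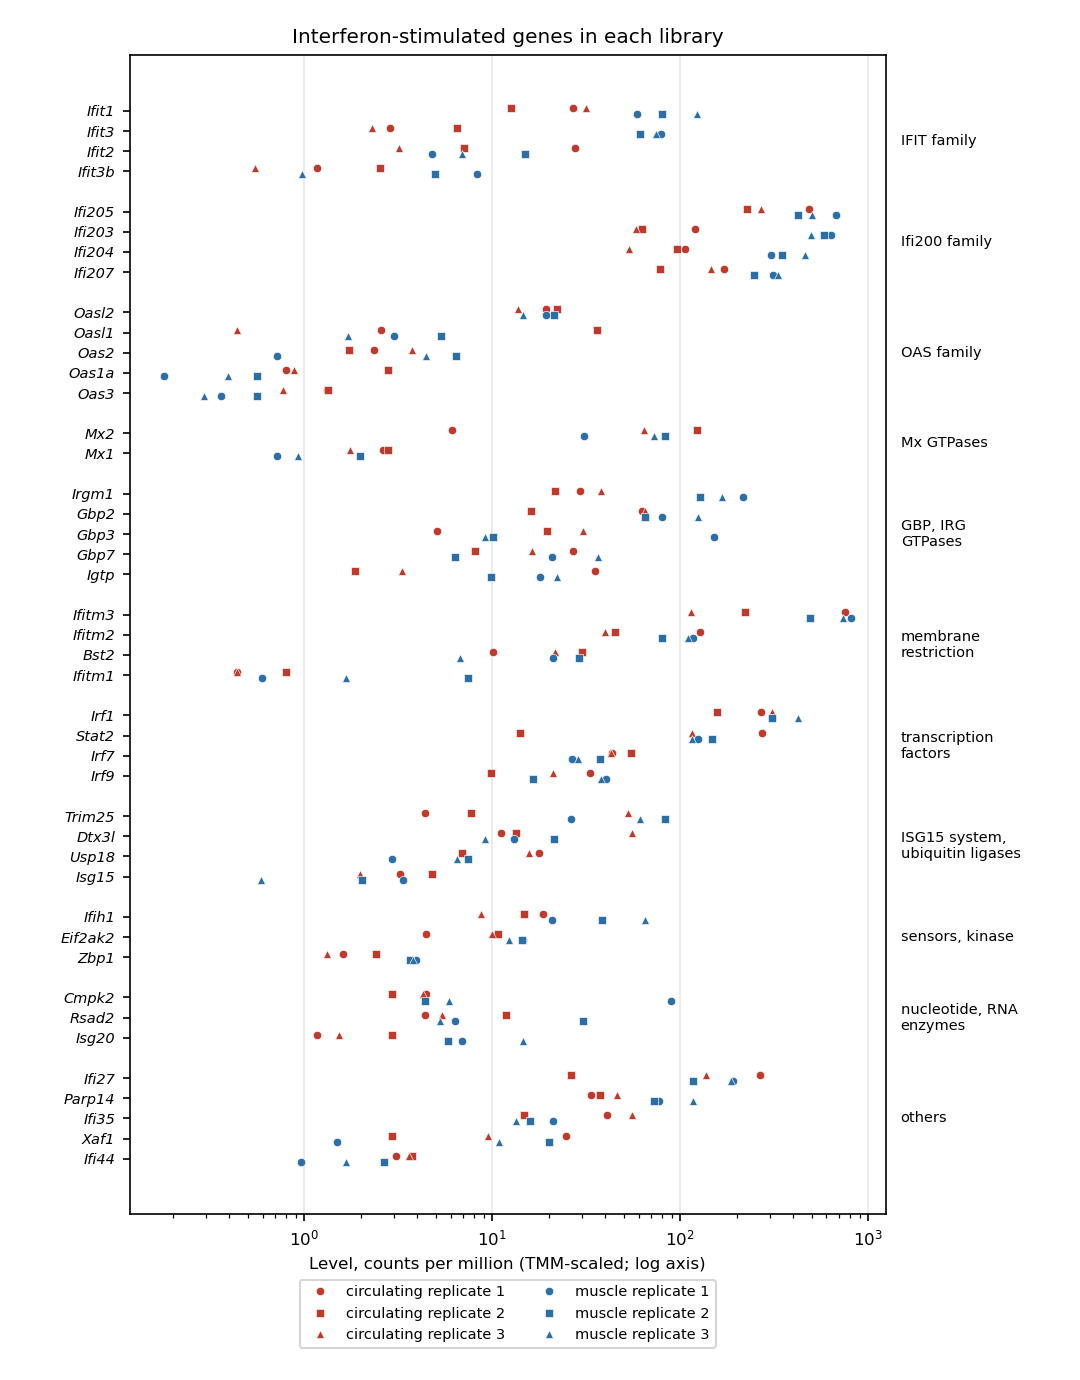
Level of each of the 43 genes in each library, in TMM-scaled CPM on a log axis, grouped by role (red circulating, blue muscle; a symbol per replicate). Every red point lies left of every blue point for 12 genes, Ifi203, Ifi204, Ifit3 and Irgm1 among them, and right of every blue point for Oas1a, Oas3, Irf7 and Ifi44.

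The choice of scaling sets where zero lies. With TMM computed on abundant genes (a mean of at least 20 CPM) the median of all genes moved by 0.70 on the log2 scale, the median of the members became 0.13, and no member passed, where 0.0198% of all genes were called lower and 0.0148% higher. At an unadjusted p under 0.05, 5 members were then lower and 7 higher, against 3.11% and 26.3% of all genes. DESeq2 called 6 members lower and none higher, against 5.32% and 1.01% of all genes. These 6 were Ifi203, Ifi204, Ifit1, Ifit3, Irgm1 and Isg20, and their log2 fold changes stayed negative under every alternative tried.

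**Figure D2:**
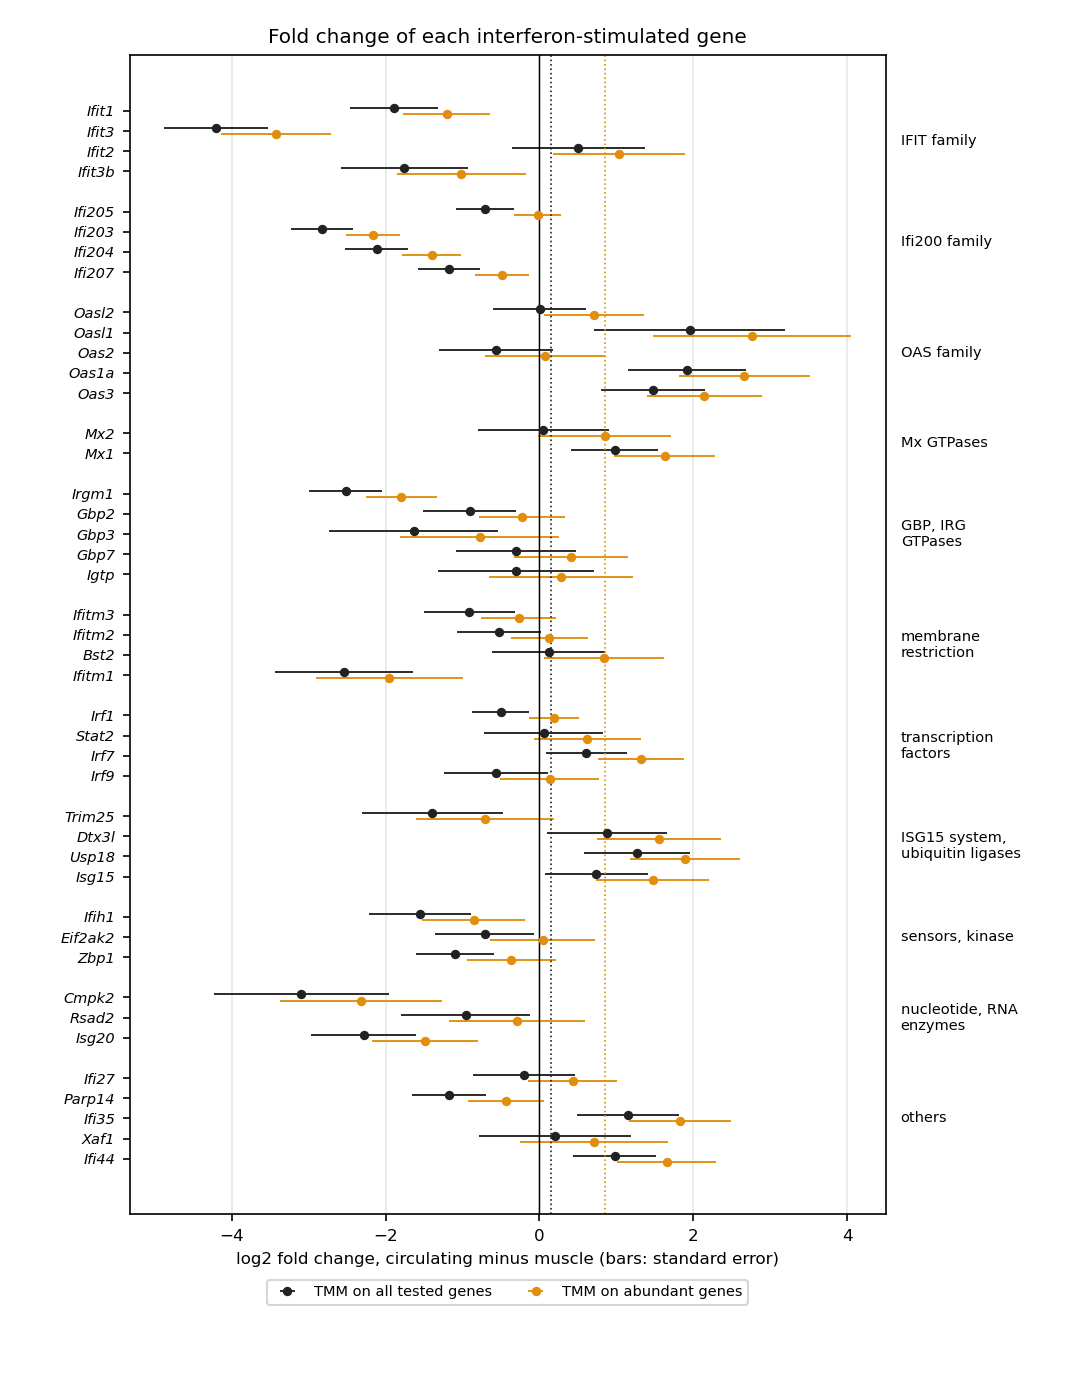
Log2 fold change (circulating minus muscle) of each gene with its standard error, in edgeR with TMM on all tested genes (black) and on abundant genes (orange); dotted lines mark the median of all tested genes under each scaling, 0.15 and 0.85. The Ifi200 family, Ifit1, Ifit3, Irgm1, Cmpk2 and Isg20 lie on the negative side under both, while all 4 transcription factors lie on the positive side with the orange scaling.

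The Ifi200 (PYHIN) family encodes proteins with an HIN domain that binds DNA, several of them sensors or nuclear regulators. Of this family 4 genes are members, and at an unadjusted p under 0.05 3 of the 4 were lower in circulating libraries, against 9.64% of all genes. All 4 had a mean of at least 20 CPM, and of all genes at that level 1033 of 4736 were lower at that p. All 4 values were negative under each scaling tried. Ifi203 fell from 633, 582 and 499 CPM in muscle replicates 1, 2 and 3 to 120, 62.8 and 58.1 CPM in circulating replicates 1, 2 and 3. The highest circulating library was far below the lowest muscle library. The means were 80.4 ± 34.6 (SD, n = 3) and 571 ± 67.7 CPM. In edgeR the log2 fold change was -2.83 with an SE of 0.40 (adjusted p = 0.0341). The adjusted p of Ifi203 ran from 1.96e-05 with DESeq2 to 0.202 without muscle replicate 3 in edgeR. Leaving out any library other than circulating replicate 1 took it above 0.05, between 0.0792 and 0.202, with log2 fold changes of -2.76 to -2.97. With TMM on abundant genes it was -2.17 (adjusted p = 0.0738), and with the replicate number as a block -2.90 (adjusted p = 0.0801).

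Ifi204, an innate sensor of cytosolic DNA, was at 106, 96.6 and 53.1 CPM in circulating and 303, 346 and 458 CPM in muscle libraries. The groups did not overlap, and the difference missed the threshold in edgeR (-2.11 ± 0.41, adjusted p = 0.0884) but not with DESeq2 (adjusted p = 0.00289). Ifi207 was at 171, 77.7 and 146 CPM against 310, 246 and 333 CPM, again without overlap (-1.17 ± 0.40, adjusted p = 0.192). Ifi205 had the highest mean of the family over all 6 libraries, though its muscle mean of 534 CPM was below that of Ifi203. It was at 484, 227 and 270 CPM against 677, 423 and 503 CPM, and its groups overlapped (-0.71 ± 0.38, adjusted p = 0.318). With TMM on abundant genes Ifi205 was at -0.02, and Ifi203, Ifi204 and Ifi207 were at -2.17, -1.40 and -0.49. Differences between the genes were not tested. Summed over the family, the circulating libraries held 881, 465 and 527 CPM and the muscle libraries 1923, 1597 and 1794 CPM. The family made up 28.1% to 32.1% of all reads from the 43 genes in circulating libraries and 40.5% to 43.7% in muscle libraries.

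These genes lie beside each other and share sequence, which bears on how reads were assigned. In the GENCODE M21 transcripts 12.2% of the 50-base words of Ifi203 also occur in another gene, most often Mndal, whose exons overlap those of Ifi203 on the same strand. The shares were 20.02% for Ifi204, 18.6% for Ifi205 and 7.29% for Ifi207. Mndal, itself a PYHIN gene and looked up for this overlap after its values were seen, averaged 80.2 ± 33.6 CPM in circulating against 326 ± 20.8 CPM in muscle libraries (-2.02 ± 0.41, adjusted p = 0.0911). Ifi203 and Mndal together came to 238, 115 and 129 CPM in circulating and 937, 926 and 831 CPM in muscle libraries. The part of read assignment in the value of Ifi203 was not tested.

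The IFIT family encodes tetratricopeptide-repeat proteins that bind viral RNA and block its translation. None of its 4 members passed in edgeR with TMM. At an unadjusted p under 0.05, 2 of them, Ifit1 and Ifit3, were lower, against 9.64% of all genes. Both had a mean of at least 20 CPM, and at that level 1033 of 4736 genes were lower. Ifit3 was at 2.85, 6.52 and 2.31 CPM in circulating and 79.5, 61.3 and 73.9 CPM in muscle libraries. These rest on 39, 49 and 21 reads against 1330, 1208 and 1511. The muscle mean was 18.4 times the circulating mean, and the groups stood far apart. The log2 fold change of -4.21 ± 0.67 was the largest of any member and just missed the threshold in edgeR (adjusted p = 0.0606). It passed with RLE size factors (adjusted p = 0.0454), TMMwsp scaling (0.0495), no filter (0.0131) and DESeq2 (4.41e-09), and over all alternatives its adjusted p ran up to 0.219. Ifit3b is a close copy: 51.2% of the 50-base words of Ifit3 occur in another gene, and that gene is Ifit3b. Ifit3b was at 1.17, 2.53 and 0.55 CPM against 8.30, 4.98 and 0.98 CPM, with overlap (-1.76 ± 0.82, adjusted p = 0.271). The pair together came to 4.01, 9.05 and 2.85 CPM in circulating and 87.8, 66.3 and 74.9 CPM in muscle libraries.

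Ifit1, which binds RNA lacking the cap methylation of host transcripts, was at 26.9, 12.5 and 31.5 CPM in circulating and 59.1, 80.4 and 124 CPM in muscle libraries. The groups did not overlap (-1.89 ± 0.57, adjusted p = 0.173 in edgeR, 0.0230 with DESeq2). Ifit2 went the other way in its mean, at 27.5, 7.05 and 3.18 CPM against 4.78, 14.98 and 6.89 CPM. That mean rested on circulating replicate 1, and the groups overlapped (0.51 ± 0.87, adjusted p = 0.750).

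Among the interferon-induced GTPases none of 5 passed in edgeR. At an unadjusted p under 0.05, 1 was lower, against 9.64% of all genes and 1033 of the 4736 at 20 CPM or more. That gene, Irgm1, which acts on vacuoles that hold intracellular pathogens and on autophagy, was at 29.2, 21.6 and 38.1 CPM in circulating and 215, 128 and 167 CPM in muscle libraries. The lowest muscle library exceeded the highest circulating one, and the log2 fold change was -2.52 ± 0.47 (adjusted p = 0.0838 in edgeR, 0.000231 with DESeq2). Gbp2, a guanylate-binding protein, was at 62.4, 16.1 and 65.2 CPM against 79.9, 65.3 and 125 CPM. The highest circulating and lowest muscle libraries nearly met (-0.91 ± 0.60, adjusted p = 0.408). Gbp3 showed a single high library, muscle replicate 1 at 152 CPM, with 10.1 and 9.14 CPM in the other muscle libraries and 5.11 to 30.5 CPM in circulating ones. Igtp, an immunity-related GTPase, was high in circulating replicate 1 at 35.0 CPM and at 1.86 and 3.29 CPM in the other circulating libraries, around 9.80 to 22.1 CPM in muscle. Gbp7 overlapped as well, and all 5 genes of this group had a negative value with TMM but 3 of 5 with TMM on abundant genes.

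The Mx GTPases trap viral nucleocapsids, and neither passed. Mx2 was at 6.13, 123 and 64.5 CPM in circulating and 30.9, 83.3 and 72.7 CPM in muscle libraries, a 20.1-fold range within the circulating group (0.05 ± 0.85, adjusted p = 0.977). Mx1 was at 1.76 to 2.79 CPM in circulating and 0.72 to 1.98 CPM in muscle libraries (0.98 ± 0.56, adjusted p = 0.350).

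In the OAS family the 2',5'-oligoadenylate synthetases make the second messenger that activates RNase L, and the family also holds the OAS-like genes Oasl1 and Oasl2. None of the 5 members passed, and 1, Oas1a, was higher at an unadjusted p under 0.05, against 9.71% of all genes. With TMM 1 of the 5 values was negative, with TMM on abundant genes 0 and with RLE size factors 2. Oasl2 was level, at 19.4, 22.1 and 13.7 CPM against 19.3, 21.3 and 14.6 CPM (0.00 ± 0.60, adjusted p = 0.999). Oasl1 was at 36.1 CPM in circulating replicate 2, from 271 reads, and at 2.55 and 0.44 CPM in the other 2 circulating libraries, with 1.71 to 5.33 CPM in muscle. Without circulating replicate 2 its log2 fold change went from 1.95 to -1.23. Oas1a and Oas3 had the lowest CPM of the members when averaged over all 6 libraries, with circulating and muscle means of 1.49 against 0.38 CPM and 1.14 against 0.40 CPM. Both lay higher in every circulating library, with log2 fold changes of 1.92 ± 0.77 (adjusted p = 0.222) and 1.48 ± 0.67 (adjusted p = 0.261). These rest on 8 to 21 and 7 to 18 reads per circulating library. Oas1a also shares 57.6% of its 50-base words with other genes, Oas1g and Oas1b.

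A background of reads was taken from 561 sensory receptor genes of the vomeronasal, taste and trace amine classes, which most tissues do not express. Their median was 0.473, 0.473 and 0.408 CPM per kilobase of exon in circulating and 0.259, 0.261 and 0.211 in muscle libraries, higher in every circulating library. On this scale Oas3 was at 0.27 to 0.40 times background in circulating libraries, Mx1 at 1.14 to 1.56, Ifi44 at 1.06 to 1.45 and Oas1a at 0.90 to 3.14. These 4 genes have positive log2 fold changes, and 3 of them (Oas1a, Oas3 and Ifi44) lay higher in every circulating library; the part of the background in that was not tested. Of the 43 members 27 were at 2 or more times background in every circulating library and 37 in every muscle library. Ifi203, at 19.8 to 37.9 times background in circulating and 332 to 364 times in muscle libraries, and Ifit3, at 3.24 to 7.91 and 135 to 200 times, were above it in both groups. Zbp1 and Ifitm1 were under 2 times background in every circulating library and above it in every muscle library. The counts of 27 and 37 members depend on the background chosen. With the lower quartile of the receptor genes in place of their median they were 39 and 41. With the upper quartile they were 23 and 35.

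**Figure D3:**
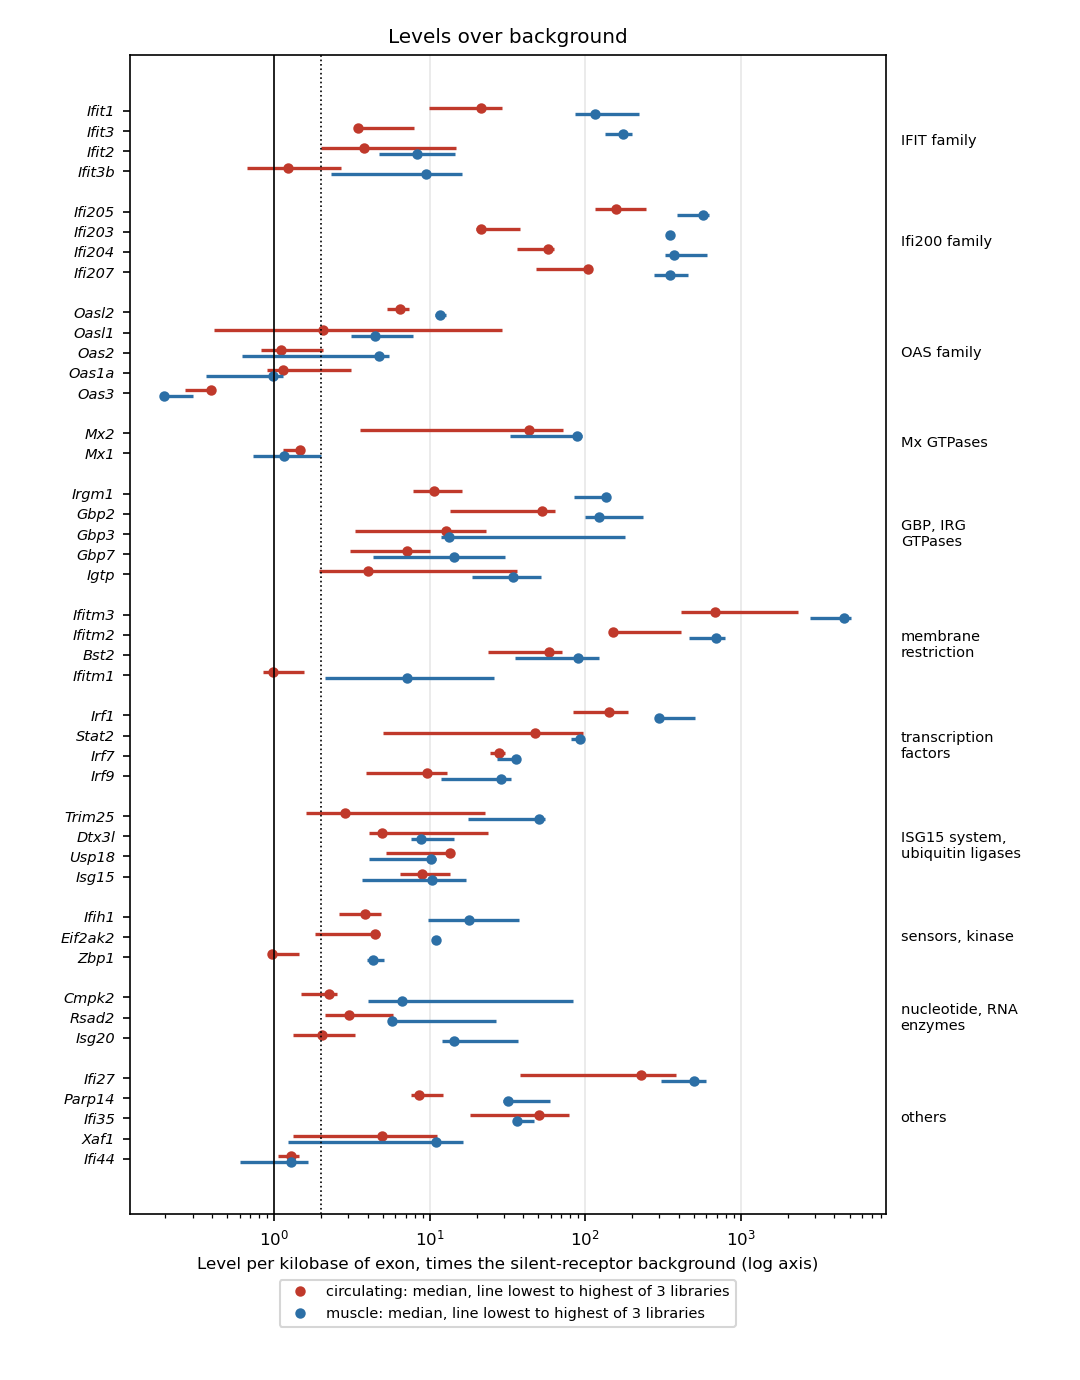
Level per kilobase of exon of each gene as a multiple of the silent-receptor background of the same library (log axis; dot, median of 3 libraries; line, lowest to highest; solid line at 1, dotted at 2). Mx1, Ifi44 and Oas3 stay at about 2 or less in every library, whereas the 4 Ifi200 genes, Ifitm2, Ifitm3, Irf1 and Ifi27 are at 275 or more times background in every muscle library.

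None of the 4 membrane restriction factors, which keep viruses from entering or leaving the cell, passed the test. Ifitm3, which blocks fusion of viruses in endosomes, had the highest level per kilobase of all members in both groups, with means of 533 CPM per kilobase in circulating and 1003 in muscle libraries. It was at 751, 220 and 114 CPM in circulating and 813, 493 and 735 CPM in muscle libraries, where circulating replicate 1 lay within the muscle range and the other circulating libraries below it (-0.91 ± 0.59, adjusted p = 0.396). Without circulating replicate 1 the value of Ifitm3 was -2.10 (adjusted p = 0.0676). Ifitm2 was at 128, 45.0 and 40.0 CPM against 117, 79.8 and 110 CPM, with circulating replicate 1 above all muscle libraries and the other circulating libraries below them (-0.53 ± 0.55, adjusted p = 0.590; 0.13 with TMM on abundant genes). Of the 50-base words of Ifitm2 48.5% occur in other genes, mostly predicted models, so its counts depend on how such reads were treated. Ifitm1 had only 4 to 6 reads per circulating library and 10, 146 and 34 in muscle libraries, or 0.56 ± 0.21 against 3.22 ± 3.67 CPM (-2.54 ± 0.90, adjusted p = 0.198). Without muscle replicate 2 the value of Ifitm1 was -1.09. Bst2, the tether that holds budding virions on the cell, overlapped between the groups at 10.1, 30.1 and 21.6 against 21.0, 29.1 and 6.70 CPM.

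The 2 sensors of nucleic acid and the kinase that stops translation all had lower means in circulating libraries, and none passed. Ifih1, the MDA5 sensor of long double-stranded RNA, was at 18.7, 14.8 and 8.67 CPM against 20.7, 38.2 and 64.9 CPM (-1.55 ± 0.66, adjusted p = 0.239). Eif2ak2, the kinase PKR, was at 4.45, 10.8 and 9.99 CPM against 14.5, 14.5 and 12.3 CPM (-0.71 ± 0.64, adjusted p = 0.532; 0.04 with TMM on abundant genes). On TMM-scaled CPM the groups did not overlap for Ifih1, Eif2ak2 or Zbp1, the sensor of Z-form nucleic acid. Of all genes 11.4% lay lower in every circulating library. The share was 28.8% with a mean of at least 20 CPM, as Ifih1 had. From 2 to 20 CPM, the range of Eif2ak2 and Zbp1, it was 9.73%. Overlap was not recounted under other scalings.

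The 3 enzymes that act on nucleotides and RNA had negative values under every scaling tried, and none passed in edgeR. Isg20, an exonuclease that degrades RNA, was at 1.17, 2.93 and 1.54 CPM in circulating and 6.87, 5.84 and 14.6 CPM in muscle libraries. Its groups did not overlap (-2.28 ± 0.68, adjusted p = 0.171 in edgeR, 0.0131 with DESeq2). Cmpk2, a mitochondrial nucleotide kinase whose gene neighbours Rsad2, was at 89.6 CPM in muscle replicate 1, from 1500 reads, and at 4.37 and 5.87 CPM in the other muscle libraries. The circulating libraries were at 4.45, 2.93 and 4.28 CPM, and the log2 fold change of -3.09 ± 1.14 (adjusted p = 0.206) became -0.45 without muscle replicate 1. Rsad2, the viperin that makes a chain-terminating nucleotide, was at 30.2 CPM in muscle replicate 2 and at 6.33 and 5.28 CPM in muscle replicates 1 and 3, against 4.38 to 11.8 CPM in circulating libraries. The high Cmpk2 and the high Rsad2 values thus came from different muscle libraries.

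None of the 4 transcription factors passed, and 2 of them had negative values with TMM. Irf1, which drives both interferon gamma and inflammatory targets, was the most abundant of them at 268, 157 and 307 CPM against 306, 308 and 425 CPM (-0.51 ± 0.37, adjusted p = 0.445; 0.19 with TMM on abundant genes). Stat2 was at 273, 14.0 and 115 CPM in circulating libraries, a 19.5-fold range, and at 124, 147 and 116 CPM in muscle ones (0.06 ± 0.77, adjusted p = 0.973). Irf7, the factor that amplifies type I interferon production, lay higher in every circulating library, at 43.3, 54.4 and 43.0 CPM against 26.5, 37.2 and 28.6 CPM (0.61 ± 0.52, adjusted p = 0.511; 1.32 with TMM on abundant genes, adjusted p = 0.146). Leukocytes express Irf7 too, and the leukocyte markers given above were higher in circulating libraries; their part in the Irf7 value was not tested. Exons of Irf7 also overlap those of Phrf1 on the other strand. Irf9 overlapped between the groups.

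Isg15 is a ubiquitin-like protein, and Usp18 removes it from its targets and damps signalling at the type I receptor. Usp18 had the second largest positive fold change among members of at least 5 CPM, at 17.8, 6.92 and 15.7 CPM in circulating and 2.93, 7.46 and 6.45 CPM in muscle libraries (1.26 ± 0.69, adjusted p = 0.327). Isg15 was low in both groups, with 18 to 44 reads per circulating and 12 to 56 per muscle library. Trim25, a ubiquitin ligase that activates RIG-I, was at 4.38, 7.72 and 52.9 CPM against 26.2, 83.0 and 61.4 CPM (-1.39 ± 0.91, adjusted p = 0.402). Dtx3l, a ubiquitin ligase that works with Parp9, was at 11.1, 13.3 and 55.5 CPM against 13.1, 21.3 and 9.19 CPM (0.87 ± 0.78, adjusted p = 0.528), and its exons overlap those of Parp9 on the other strand. Within the circulating group replicate 3 was the highest library for both ligases, and without it the value of Trim25 was -3.34 (adjusted p = 0.204).

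Of the remaining members, Parp14, an ADP-ribosyltransferase, was at 33.5, 37.4 and 46.3 CPM against 76.9, 72.1 and 117 CPM without overlap (-1.18 ± 0.48, adjusted p = 0.227). Ifi27, a mitochondrial protein, was at 267, 26.4 and 136 CPM against 191, 117 and 187 CPM (-0.20 ± 0.67, adjusted p = 0.874). Ifi35 and Xaf1 overlapped between the groups.

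**Figure D4:**
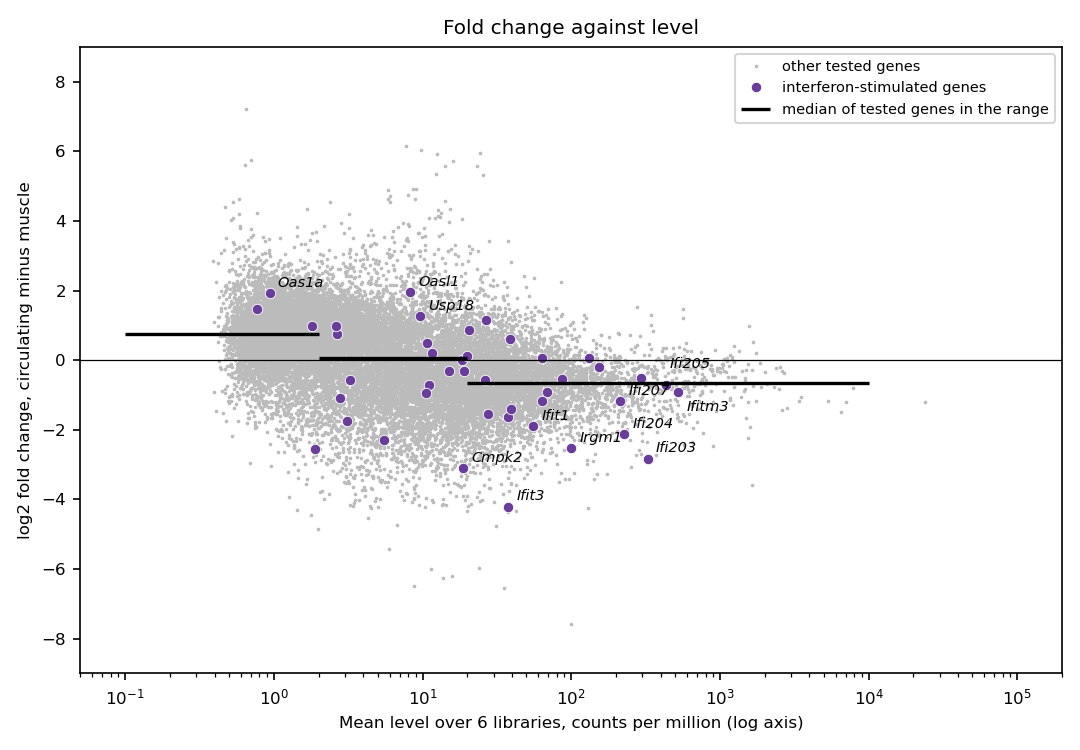
Log2 fold change (circulating minus muscle) against mean level over 6 libraries for all tested genes (grey) and the 43 members (purple); black bars are medians of all tested genes under 2, from 2 to 20, and from 20 CPM (0.77, 0.07 and -0.65). Ifit3, Ifi203, Irgm1 and Ifi204 lie well below the bar of their range, while Ifi205 and Ifitm3 lie closer to it and Ifi207 lies between.

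The members differed in how much they varied within a group. Among 34 members of at least 5 CPM the highest circulating library was at least 3 times the lowest for 16, and the highest muscle library for 10, where 46.2% and 36.5% of all genes of that level did so. The ranges were narrow for Ifi203 in muscle (1.27-fold), Ifit3 in muscle (1.30-fold) and Irf7 in circulating libraries (1.26-fold), and wide for Oasl1 (82.1-fold), Mx2 (20.1-fold), Stat2 (19.5-fold) and Igtp (18.8-fold) in circulating and Cmpk2 (20.5-fold) and Gbp3 (16.6-fold) in muscle libraries. Added up, the 43 genes came to 3081, 1446 and 1874 CPM in circulating and 4541, 3654 and 4426 CPM in muscle libraries. As a share of counts without 18S they took 0.536%, 0.350% and 0.403% against 0.579%, 0.568% and 0.571%. The muscle libraries were close to each other, and circulating replicate 1 was nearest to them. The 5 most abundant members made up 52.0% to 66.3% of the sum in each circulating and 58.9% to 60.3% in each muscle library.

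The rest of the pathway was read from lists of ligands, receptors, transducers, sensors, negative regulators and further interferon-stimulated genes. None of the 96 tested genes passed in edgeR, with 15 lower and 6 higher at an unadjusted p under 0.05; DESeq2 called 8 lower and none higher. The shares over all genes were 9.64% and 9.71% at the unadjusted p, and 5.32% and 1.01% with DESeq2. Interferon transcripts themselves were at trace levels: of 10 ligand genes only Ifna2 and Ifng passed the filter on low counts. Ifng averaged 1.40 ± 0.43 CPM in circulating against 0.59 ± 0.06 CPM in muscle libraries (1.21 ± 0.60, adjusted p = 0.2915). Its values rest on 14, 14 and 12 reads in circulating and 9, 13 and 12 in muscle libraries. The silent-receptor background was also higher in every circulating library, and its part in the Ifng value was not tested. Ifna2 averaged 0.96 ± 1.001 CPM in circulating and 0.41 ± 0.26 CPM in muscle libraries (adjusted p = 0.54).

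None of the 5 receptor chains tested passed. Ifngr1 was the most abundant, with means of 113 ± 30.3 CPM in circulating against 169 ± 32.6 CPM in muscle libraries (-0.58 ± 0.40, adjusted p = 0.425). Ifnar2 was at 18.8 ± 5.004 and 34.5 ± 3.44 CPM (-0.87 ± 0.57, adjusted p = 0.402). Of 11 transducers 3 were lower at an unadjusted p under 0.05 and none higher, against 9.64% and 9.71% of all genes. With a mean of at least 20 CPM, as Jak1 and Stat3 had, 1033 of 4736 genes were lower at that p. Jak1, the kinase common to both receptors, was at 144, 62.4 and 69.7 CPM in circulating and 270, 332 and 433 CPM in muscle libraries, without overlap (-1.90 ± 0.44, adjusted p = 0.127). Stat3 was at 122, 54.0 and 87.6 CPM against 207, 219 and 201 CPM (-1.25 ± 0.42, adjusted p = 0.188).

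Among sensors and adaptors Myd88 was at 82.5 ± 50.2 and 90.2 ± 25.1 CPM and Rigi, the RIG-I gene, at 17.8 ± 11.4 and 47.5 ± 40.6 CPM, neither past the threshold (adjusted p = 0.902 and 0.355). Of the negative regulators Socs3 was at 245 ± 43.6 against 420 ± 21.1 CPM (-0.78 ± 0.32, adjusted p = 0.228) and Ptpn2 at 37.1 ± 19.8 against 56.0 ± 31.9 CPM. In the list of 58 further interferon-stimulated genes tested, 9 were lower and 5 higher at an unadjusted p under 0.05, where the shares over all genes were 9.64% and 9.71%. Their median log2 fold change was -0.04, against 0.15 over all genes tested. Ifi27l2a, the most abundant of these, was at 1469, 289 and 591 CPM in circulating and 386, 297 and 335 CPM in muscle libraries (1.21 ± 0.51, adjusted p = 0.237). Ifi211, another PYHIN gene, was at 206, 39.3 and 92.6 CPM against 373, 296 and 241 CPM (-1.43 ± 0.55, adjusted p = 0.216).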

How the data were processed

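RNA-seq was done on 3 circulating and 3 muscle samples, grouped by their labels. The deposited table holds raw read counts by gene symbol. The submitters' processing notes name build GRCm39 and the tools STAR, featureCounts and Trim Galore. Their versions, options, strand setting and annotation are not given in the sources used here. Libraries were made with a kit that fragments DNA by transposition, per the labels' protocols. The members and the gene lists were chosen with earlier results of these data known.

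All genes were fitted together in edgeR 4.0.16 (R 4.3.3): TMM scaling, filterByExpr, robust quasi-likelihood dispersions and 1 group term. Benjamini-Hochberg adjustment covered 20248 genes, with a threshold of 0.05. Log2 fold changes are circulating minus muscle, and each SE is the size of that value over the square root of F. DESeq2 1.42.0 was an alternative. The steps were tested on simulated counts. Replicates of a group differed far beyond sampling noise (chi-square per degree of freedom 67.8 to 104).

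Exon lengths came from GENCODE M21 (GRCm38), matched by symbol for 91.5% of symbols and all 43 members; of 594 silent receptor genes 561 had one. No coordinates were joined to the counts. Members described in full were those past the threshold, the 2 most abundant of each of 11 roles, the 6 next smallest p-values and the largest folds, 29 in all; any further member was named after its values had been seen.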

Additional observations from a re-analysis of the deposited data

How the results depend on the processing

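The count of lower and higher genes over the whole table, 21 and 1, became 42 lower with RLE size factors, 1 with upper quartile scaling, 4 and 3 with TMM on abundant genes, 154 and 6 with no filter, 1078 and 204 with DESeq2, 2 higher with library size only and 4 higher with a mean of at least 5 CPM. Leaving out 1 library gave 0 to 63 lower and 0 to 2 higher genes. The count of 1 member called lower became 2 with RLE size factors, 2 with TMMwsp scaling, 4 with no filter, 6 with DESeq2, and 0 with upper quartile scaling or TMM on abundant genes; it was 0 to 1 with 1 library left out. Of the pathway genes 2 were lower with no filter, 8 with DESeq2 and 0 to 2 with 1 library left out, and 0 under the other alternatives.

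No label says that a replicate number pairs samples, and the correlation of deviations between same-numbered samples was 0.008, 0.041 and 0.006. With the replicate block 1 gene was lower, 0 were higher and 0 members passed.

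Ifi203 stayed negative in each alternative, between -3.31 and -2.17. The sign of these uncalled members turned. With RLE size factors Oasl2 was at -0.0975, Mx2 at -0.0205 and Stat2 at -0.0702; with DESeq2 at -0.0979, -0.02 and -0.0706; with no filter at -0.22, -0.16 and -0.18. Oasl2 and Stat2 were at -0.0304 and -0.0093 with TMMwsp scaling and at -0.0486 and -0.0036 with 18S removed. Under the replicate block Oasl2 was at -0.0076, Mx2 at -0.60 and Stat2 at -0.60. Ifitm2, Irf1 and Ifi27 were at 0.12, 0.18 and 0.43 with upper quartile scaling, at 0.13, 0.19 and 0.43 with TMM on abundant genes (Eif2ak2 0.0441), and at 0.0032, 0.052 and 0.32 with a mean of at least 5 CPM. With 1 library left out Oasl2 ran from -0.24 to 0.066, Oasl1 from -1.23 to 2.44, Mx2 from -0.88 to 0.53, Stat2 from -1.06 to 0.49, Dtx3l from -0.36 to 1.20, Rsad2 from -1.59 to 0.25 and Ifi27 from -1.08 to 0.19. The cause of these turns was not tested.

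The summed level of the members, log2 circulating over muscle, was -0.98 and became -0.41 as a share of counts without 18S and -0.25 as the difference between the group means of each library's median log2(CPM + 0.5) over the members. Depth limits the low members, whose circulating counts were under 30 reads in several libraries.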
